A study of Mus musculus with 32 samples.

Results

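Lung of mice exposed to dust of the World Trade Center (WTCPM, its particulate matter) was compared with lung of mice that received neither dust nor drug. The groups were taken from the sample labels, and the comparison used 16 of the 32 libraries of the series, namely 2 sequencing lanes from each of 4 WTCPM mice and 4 control mice. All mice were wild-type males of the C57BL/6J strain, aged 6-8 weeks when bought, and the dust had been gathered at Ground Zero in the days after the collapse. The sources used here do not state the route and dose of the dust or the time from exposure to tissue collection. The other 16 libraries came from mice given the same dust together with rosoxacin, a quinolone, at 5 mg/kg (4 mice), or dexamethasone, a glucocorticoid, at 0.1 mg/kg (4 mice). They are given only beside the members of this comparison. Whole lung RNA was sequenced, so that fewer cells of a type and less RNA per cell cannot be told apart in any value below.

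Inhaled mineral dust is first met by airway epithelium and alveolar macrophages. Their pattern recognition receptors and inflammasomes act through the transcription factor NF-kB, which drives genes for acute phase proteins, CXC chemokines and cytokines, and the chemokines draw neutrophils and monocytes from blood. Later phases of such a response include T and B cell activation, division of immune and epithelial cells during repair, and deposition of matrix by fibroblasts.

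The deposited unit is FPKM, the fragments per kilobase of transcript, divided by the number of mapped fragments in the library. Genes could be named only where the authors' table carries an Ensembl gene identifier, and those genes hold 0.114% of all FPKM. The other 99.89% lie in assembled loci for which no gene name is paired in the table. Of 26305 genes with an Ensembl identifier, 2749 averaged 0.1 FPKM or more across the 16 mice of the series and were tested, and the highest of these means was 4.05 FPKM. This filter used all 4 groups, so a low gene could pass it through the 1 group where it was high. For such a gene the filter favoured the side of the change. Among others, Tmem179, Got1l1, Marc1, Mir679 and Trdv2-2 averaged under 0.1 FPKM without the control mice. Depdc1a, Sebox and Gm42511 did so without the WTCPM mice. The defining markers of the lung itself could not be used to check the tissue label. Sftpc, Sftpb, Ager and Hopx of alveolar epithelium, Scgb1a1 of club cells and Foxj1 of ciliated cells have no identifier of their own, and the same was true of 41 of 52 defining markers looked for. Macrophage, B cell and alveolar lists had no tested member.

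Depth was estimated from the steps between low FPKM values of single-exon genes, where 1 read pair has a fixed value. The labels describe the reads as both single and paired-end, and the steps were read as pairs here. The estimate gave 18700000 to 27900000 pairs for the 8 mice, with a mean of 24400000 ± 3950000 in control and 19900000 ± 1200000 in WTCPM mice (SD, n = 4 each, exact two-sided permutation p = 0.114, where the smallest possible p is 0.0286). Only 21.4% to 28.1% of low values lay within 0.01 pairs of a multiple of 0.5 pairs, so these depths are approximate. A tested gene rested on a median of 5.22 pairs per mouse, with quartiles of 2.33 and 11.3. Values of exactly 0 therefore mean that a gene was listed at 0 and not that it was absent. One library pair stood apart. Control mouse 1 had a total of 1099603 FPKM, against 704683 to 803130 in the other 7 mice, and the fewest features above 0.1 FPKM (25048, against 26597 to 27232). Where leaving it out moved a printed difference of a single gene by over 1.5 times, the value without it stands beside it.

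No named gene passed an adjusted p of 0.05 between WTCPM and control (0 of 2749, limma with Benjamini-Hochberg adjustment, 0%). At an unadjusted p under 0.05 there were 141 genes, 5.13% of those tested, of which 81 (2.95%) had higher and 60 (2.18%) lower means in WTCPM mice. The 4 WTCPM mice lay wholly above the 4 control mice for 51 genes (1.86%) and wholly below for 32 (1.16%), 3.02% in all. Means on the log2 scale were higher in WTCPM mice for 53.4% of genes and lower for 46.5%. These shares are the background for every count below. Differences are given on the log2(FPKM + 0.1) scale with their standard error (SE), which understates the change of low genes, and the median over all 2749 genes was 0.03. The plot of change against unadjusted p shows where the named groups fall.

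**Figure D1:**
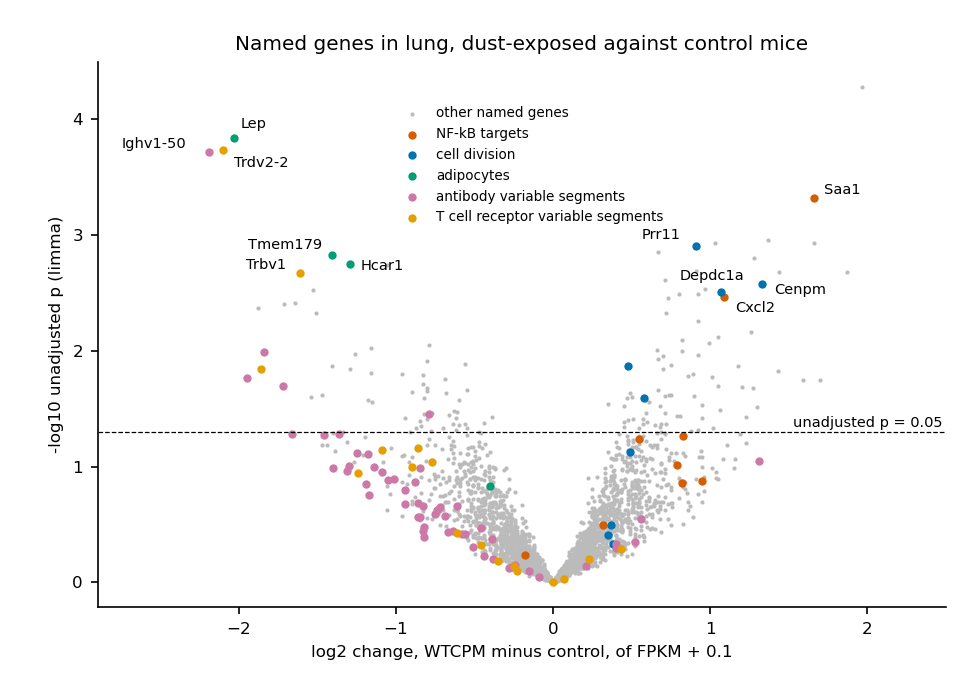
Each point is 1 of 2749 named genes, with the log2 difference of FPKM + 0.1 between WTCPM and control mice (n = 4 each) on the x axis and -log10 of the unadjusted limma p on the y axis, and colours mark 5 gene lists. No gene passed after adjustment. Saa1 lies at 1.66 and Lep at -2.03, and the antibody and T cell receptor segments lie mostly left of 0.

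Saa1 had the smallest unadjusted p among the genes with established names that were higher in dust-exposed lung. It encodes serum amyloid A1, a secreted acute phase apolipoprotein, and lies at chr7:46740497-46742980, minus strand (mm10, GENCODE M21). Its levels were 0.0202, 0.00377, 0.0367 and 0.0208 FPKM in the 4 control mice and 0.318, 0.24, 0.2 and 0.386 FPKM in the 4 WTCPM mice. Every WTCPM mouse was above every control mouse by a wide margin, and the controls were close to 0. The difference was 1.66 (SE 0.39, adjusted p = 0.265), which did not pass, and it rested on about 0.763 read pairs per control mouse and 8.81 per WTCPM mouse. Saa2, a near-identical neighbour, can share its reads. Saa1 is the one acute phase gene tested, and in the drug-treated dust mice it measured 0.201, 0.299, 0.18 and 0.244 FPKM with rosoxacin and 0.927, 0.265, 0.745 and 0.1 FPKM with dexamethasone. All 8 of those mice lay above the control range, and the dexamethasone mice spread most.

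Chemokine ligands were represented by 5 tested genes, of which 4 had higher means after dust and 1, Cxcl2, had an unadjusted p under 0.05. Cxcl2 attracts neutrophils through the receptor CXCR2 and lies at chr5:90903871-90905938, plus strand. It measured 0.34, 0.157, 0.13 and 0.125 FPKM in control and 0.886, 0.61, 0.237 and 0.403 FPKM in WTCPM mice. WTCPM mouse 3 lay below control mouse 1, so the groups overlapped at that 1 pair. The difference was 1.09 (SE 0.32, adjusted p = 0.356), and 1.31 without control mouse 1. Its neighbour and close relative Cxcl1, another CXCR2 ligand, measured 0.522, 0.203, 0.294 and 0.137 FPKM in control and 0.365, 0.423, 0.247 and 0.404 FPKM in WTCPM mice, a difference of 0.32 (SE 0.31, adjusted p = 0.918). Cxcl1 overlapped throughout, with control mouse 1 the highest of all 8, and the difference was 0.58 without that mouse. Cxcl5, made by alveolar epithelium, measured 0.0567, 0, 0.129 and 0.0836 FPKM in control and 0.22, 0.277, 0.0982 and 0.173 FPKM in WTCPM mice (adjusted p = 0.894). For Ccl4, a chemokine of macrophages and lymphocytes, the values were 0.29, 0, 0 and 0 FPKM and 0.343, 0.224, 0 and 0.28 FPKM, so that 3 controls and 1 WTCPM mouse were listed at 0. Ccl20, the ligand of CCR6, was the one chemokine with a lower mean, at 0.241, 0.253, 0.44 and 0.339 FPKM in control and 0.324, 0.364, 0.2 and 0.197 FPKM in WTCPM mice (adjusted p = 0.938).

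All 5 chemokines and Saa1 belong to a list of genes known to be induced through NF-kB, whose other tested members were the cytokine genes Il11 and Il12b and Acod1, the enzyme that makes itaconate in activated macrophages. Of the 9 tested, 8 had higher means in WTCPM mice, 2 had an unadjusted p under 0.05 (Saa1 and Cxcl2) and none passed after adjustment. The median difference was 0.82, against 0.03 over all genes, and the groups did not overlap for Saa1 and Il11. Without control mouse 1 it was 0.82 as well, with 3 genes at an unadjusted p under 0.05. Summed over the list, levels ran from 0.835 to 1.6 FPKM in control and 1.58 to 3.17 FPKM in WTCPM mice, and these ranges just overlapped.

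To show the sites through which NF-kB is known to bind these genes, the 250 bases before the start site were read from the RefSeq promoter table (GRCm38.p6, the assembly also called mm10), 5′ to 3′ on the gene's strand. The table held 7 of the 9 genes, and 3 of those 7 had a match to the NF-kB consensus on either strand (Cxcl1, Cxcl2 and Ccl20), against 3.90% of all 32851 promoters of that length. The promoters of Cxcl1 (chr5:90890995-90891244, plus strand), Cxcl2 (chr5:90903649-90903898, plus strand) and Saa1 (chr7:46742981-46743230, minus strand) are shown because they belong to the 2 neutrophil chemokines and to the acute phase gene, and capitals mark the matches.
Cxcl1: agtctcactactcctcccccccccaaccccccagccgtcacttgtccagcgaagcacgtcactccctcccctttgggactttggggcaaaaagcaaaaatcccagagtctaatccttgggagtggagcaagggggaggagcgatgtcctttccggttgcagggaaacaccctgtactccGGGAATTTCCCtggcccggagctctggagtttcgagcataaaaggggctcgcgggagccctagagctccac
Cxcl2: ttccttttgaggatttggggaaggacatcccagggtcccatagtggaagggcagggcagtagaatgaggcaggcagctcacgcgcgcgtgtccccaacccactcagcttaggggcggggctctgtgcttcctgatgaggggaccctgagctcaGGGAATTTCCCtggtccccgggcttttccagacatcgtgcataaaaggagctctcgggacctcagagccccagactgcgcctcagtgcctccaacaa
Saa1: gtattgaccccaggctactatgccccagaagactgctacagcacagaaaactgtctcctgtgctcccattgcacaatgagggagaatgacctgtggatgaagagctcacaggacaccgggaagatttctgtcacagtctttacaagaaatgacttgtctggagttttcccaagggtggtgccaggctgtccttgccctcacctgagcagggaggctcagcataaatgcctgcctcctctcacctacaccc
Cxcl1 and Cxcl2 hold the same 11 capital letters, where a match on the plus strand overlaps one on the minus strand, 71 to 61 bases before the start of Cxcl1 and 97 to 87 before that of Cxcl2. Saa1 has no match to these letters in this window. The matching promoter of Ccl20 belongs to the 1 gene of the list with a lower mean. A match describes the sequence and no binding was measured.

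**Figure D2:**
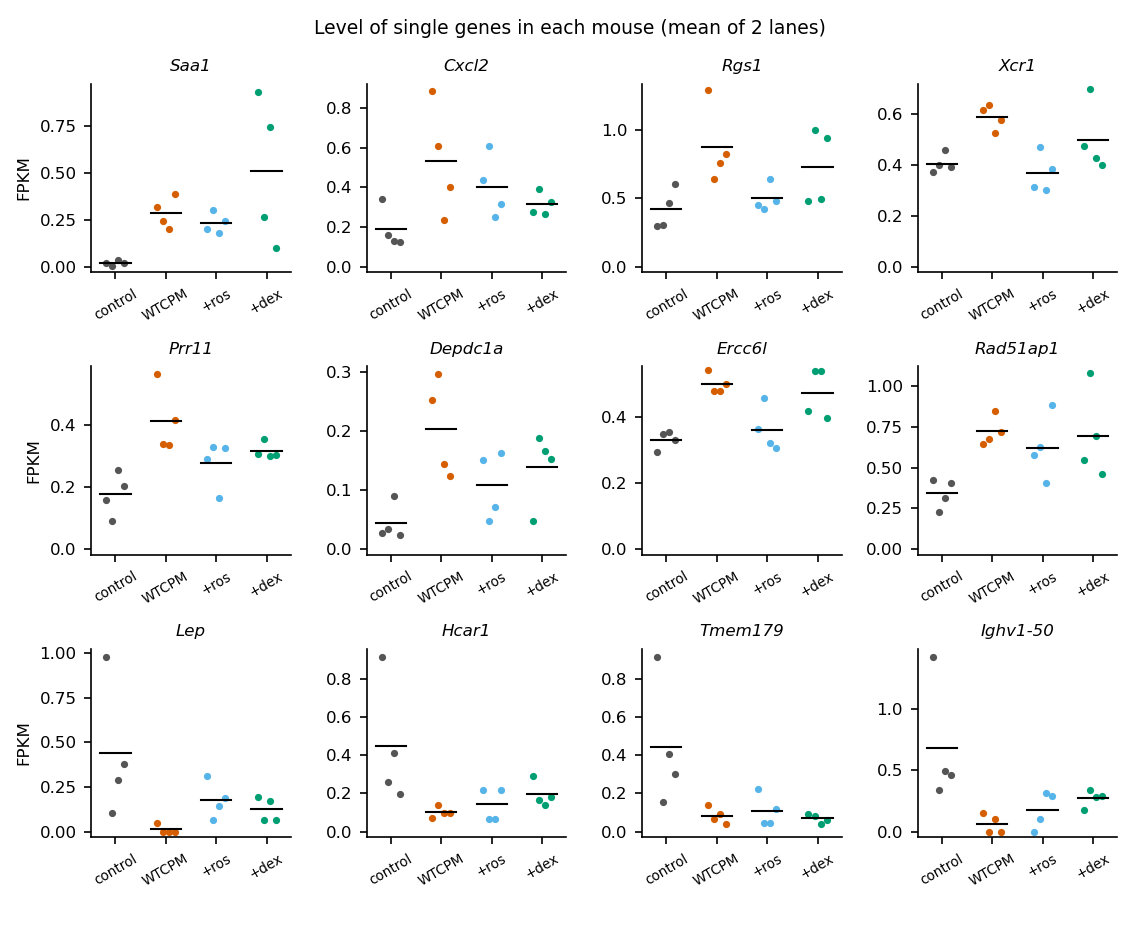
Points are the FPKM of 12 genes in each of 16 mice (mean of 2 lanes), ordered by mouse number within the control, WTCPM, WTCPM with rosoxacin (+ros) and WTCPM with dexamethasone (+dex) groups, and lines are group means. Saa1 is between 0.2 and 0.386 FPKM in WTCPM mice and at most 0.0367 FPKM in control, while Lep is at 0 in 3 of 4 WTCPM mice.

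Among 6 tested cytokine genes, 3 had higher and 3 lower means after dust, with a median difference of 0.24. Osm, which encodes oncostatin M, an IL-6 family cytokine of neutrophils and macrophages, measured 0.49, 0.22, 0.196 and 0.36 FPKM in control and 0.691, 0.5, 0.484 and 0.538 FPKM in WTCPM mice. Control mouse 1 overlapped the WTCPM range and the other 3 controls lay below it. The difference was 0.70 (SE 0.24, unadjusted p = 0.011, adjusted p = 0.672 by limma). Il11, a related cytokine linked to fibroblasts and epithelium, measured 0.0868, 0.113, 0.11 and 0.12 FPKM in control and 0.198, 0.183, 0.238 and 0.2 FPKM in WTCPM mice, without overlap (adjusted p = 0.894). Il12b, the subunit shared by IL-12 and IL-23, measured 0, 0.104, 0.233 and 0.0932 FPKM and 0.37, 0.135, 0.361 and 0.15 FPKM in the same order, with overlap (adjusted p = 0.903). Lta, lymphotoxin alpha of lymphocytes, went the other way. It measured 0.471, 0.203, 0.0907 and 0.0637 FPKM in control and 0.119, 0, 0.0771 and 0.0335 FPKM in WTCPM mice, and its difference of -0.84 (adjusted p = 0.894) was -0.49 without control mouse 1.

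Of 6 tested cytokine receptor genes, 1 had an unadjusted p under 0.05 in each direction. Il12rb1, the receptor chain that binds the subunit encoded by Il12b, measured 0.065, 0.185, 0.0682 and 0 FPKM in control and 0.297, 0.158, 0.315 and 0.207 FPKM in WTCPM mice, a difference of 1.01 (SE 0.38, adjusted p = 0.74). Il23r, which pairs with it in the IL-23 receptor, measured 0, 0, 0.0588 and 0.0804 FPKM and 0.166, 0.14, 0 and 0.127 FPKM (adjusted p = 0.894). Both had higher means after dust, and neither passed. Il5ra, the IL-5 receptor chain of eosinophils and some B cells, had a lower mean, at 0.255, 0.207, 0.13 and 0.302 FPKM in control and 0.14, 0.158, 0 and 0.135 FPKM in WTCPM mice. Its difference was -0.70 (SE 0.32, adjusted p = 0.894). Of the other eosinophil and mast cell markers, Gata1 ranged from 0.0904 to 0.257 FPKM in control and from 0.162 to 0.245 FPKM in WTCPM mice, and Ccr3 did not exceed 0.0273 FPKM in any of the 8.

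Markers of immune cells were few. Of 6 chemokine receptor genes, 5 had higher means in WTCPM mice. Xcr1, a marker of cross-presenting dendritic cells, measured 0.374, 0.399, 0.458 and 0.39 FPKM in control and 0.615, 0.637, 0.526 and 0.576 FPKM in WTCPM mice (difference 0.45, SE 0.19, adjusted p = 0.854). All WTCPM mice lay above all control mice for this gene. Of the 4 tested genes of the dendritic cell list, 2 had higher and 2 lower means. Their summed levels were 1.29 to 1.82 FPKM in control and 1.52 to 2 FPKM in WTCPM mice, ranges that overlap. The other 3 tested genes of the dendritic cell list (Cd300c, Tlr9 and Ffar2) had unadjusted p-values from 0.404 to 0.832, and Clec9a, Flt3 and Cd209a have no identifier of their own. C3ar1, the receptor of the complement fragment C3a on myeloid cells, measured 0.988, 0.908, 0.819 and 0.748 FPKM in control and 1.25, 1.17, 1.18 and 0.941 FPKM in WTCPM mice, a difference of 0.35 (SE 0.15, adjusted p = 0.834).

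The 4 tested neutrophil genes all had higher means on the log2 scale and none had an unadjusted p under 0.05. Asprv1, a protease gene also used as a neutrophil marker, did not overlap between the groups, at 0.179, 0.127, 0.207 and 0.201 FPKM in control and 0.285, 0.325, 0.241 and 0.241 FPKM in WTCPM mice (difference 0.42, adjusted p = 0.894). Cxcr2, the receptor of Cxcl1 and Cxcl2, measured 0.668, 0.366, 0.272 and 0.818 FPKM and 0.588, 0.599, 0.366 and 0.511 FPKM, and its difference of 0.04 (adjusted p = 0.988; 0.17 without control mouse 1) changed sign in 7 of 24 alternative analyses, median-of-ratios scaling among them. Cxcr1 measured 0.323, 0.32, 0.34 and 0.249 FPKM and 0.734, 0.469, 0.299 and 0.286 FPKM (adjusted p = 0.903). Acod1 was listed at 0 in 3 control mice and 1 WTCPM mouse, with 0.0489 FPKM in control mouse 1 and at most 0.181 FPKM in WTCPM mice (adjusted p = 0.894). Summed levels of the 4 genes ran from 0.814 to 1.27 FPKM in control and 0.906 to 1.75 FPKM in WTCPM mice, ranges that overlap, while S100a8, S100a9 and Csf3r have no identifier of their own.

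Of the 9 tested T and NK cell genes, 4 had higher and 5 lower means, and none passed after adjustment. Klrg1, an inhibitory receptor of effector T and NK cells, measured 0.135, 0.0915, 0.0763 and 0.128 FPKM in control and 0.27, 0.225, 0.413 and 0.127 FPKM in WTCPM mice (adjusted p = 0.894). It was the 1 of 6 C-type lectin genes with a higher mean. Klrc3, an NK cell receptor gene with close relatives that can share its reads, measured 0.2, 0.0468, 0.319 and 0.951 FPKM and 0, 0.228, 0 and 0 FPKM (adjusted p = 0.894). Rgs1 and Tnip3 are outside the lists. They were chosen for a small p among genes with higher means, which set their direction. Rgs1, a regulator of chemokine receptor signalling in activated lymphocytes, measured 0.298, 0.305, 0.467 and 0.604 FPKM in control and 1.29, 0.645, 0.759 and 0.823 FPKM in WTCPM mice, without overlap. Its difference was 0.92 (SE 0.27, adjusted p = 0.356) and 0.81 without control mouse 1. Tnip3, an inhibitor of NF-kB signalling, measured 0.346, 0.786, 0.618 and 0.58 FPKM and 1.13, 0.981, 1.01 and 0.85 FPKM, again without overlap (difference 0.72, SE 0.22, adjusted p = 0.407). The 8 pattern recognition genes tested, among them Tlr6, Tlr11, Tlr12 and Nlrp1a, had a median of 0.06 and none at an unadjusted p under 0.05. Ido1, an interferon-induced enzyme of tryptophan breakdown, measured 0, 0, 0.22 and 0.0912 FPKM and 0.106, 0, 0.231 and 0.45 FPKM (adjusted p = 0.903).

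**Figure D3:**
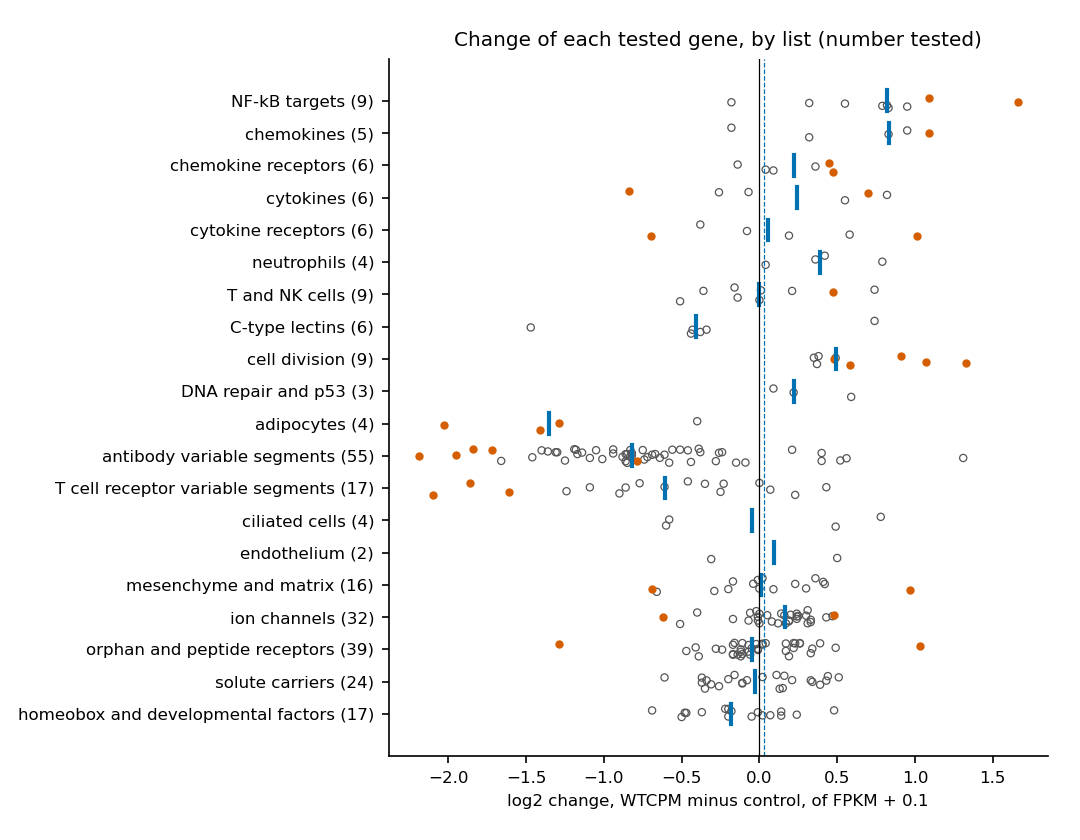
Each point is a tested gene placed by its log2 difference of FPKM + 0.1 between WTCPM and control mice (x axis) within its list (y axis), filled where the unadjusted limma p was under 0.05, and bars are list medians. The dashed line is the median of all 2749 genes, 0.03. NF-kB targets (0.82) and cell division genes (0.49) lie to the right, adipocyte genes (-1.35) and antibody segments (-0.82) to the left, and solute carriers lie around 0.

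Genes of cell division had higher means throughout. All 9 tested members were higher in WTCPM mice, 5 had an unadjusted p under 0.05, 3 did not overlap between the groups, and none passed after adjustment. Depdc1a is among both the 5 and the 3. Its WTCPM values carried it past the filter of 0.1 FPKM, which favoured the higher side for this gene. The median difference was 0.49, and 0.55 without control mouse 1, with 5 genes still at an unadjusted p under 0.05. Summed over the 9 genes, levels were 1.13 to 1.75 FPKM in control and 1.97 to 3.27 FPKM in WTCPM mice, and these ranges did not overlap. In lane 1 alone 2 of the 9, Troap and Ttk, had lower means.

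Prr11, a gene of cell cycle progression, had the smallest p of the list and lies at chr11:87089153-87108708, minus strand. It measured 0.157, 0.0892, 0.256 and 0.202 FPKM in control and 0.566, 0.338, 0.334 and 0.417 FPKM in WTCPM mice, without overlap, a difference of 0.91 (SE 0.24, adjusted p = 0.324) on about 16.4 read pairs per control mouse and 31.6 per WTCPM mouse. Depdc1a, a mitotic factor at chr3:159495433-159529955, plus strand, measured 0.0276, 0.0333, 0.0898 and 0.0235 FPKM and 0.254, 0.297, 0.144 and 0.124 FPKM, also without overlap (difference 1.07, SE 0.31, adjusted p = 0.356). Ercc6l, the DNA translocase PICH of anaphase bridges, gave tight groups. Its values were 0.295, 0.349, 0.355 and 0.331 FPKM in control and 0.543, 0.479, 0.479 and 0.502 FPKM in WTCPM mice, a difference of 0.48 (SE 0.17, adjusted p = 0.715).

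Cenpm, a centromere protein gene, rested on few reads, about 1.2 read pairs per control mouse and 3.7 per WTCPM mouse. It measured 0.283, 0.0308, 0 and 0 FPKM in control and 0.213, 0.428, 0.183 and 0.324 FPKM in WTCPM mice, so control mouse 1 lay inside the WTCPM range and the other 3 far below. The difference was 1.33 (SE 0.38, adjusted p = 0.356), and without control mouse 1 it was 1.78 and passed (adjusted p = 0.0393 by limma). Kif14, a kinesin of cytokinesis, measured 0.1, 0.0754, 0.144 and 0.135 FPKM and 0.375, 0.217, 0.135 and 0.184 FPKM (unadjusted p = 0.0253 by limma). Cenpw and Cenps, both of the kinetochore, Troap, a spindle protein, and Ttk, a spindle checkpoint kinase, had differences of 0.49, 0.38, 0.37 and 0.35, with overlapping groups. That of Cenps was 0.74 without control mouse 1.

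Rad51ap1 and Dscc1, outside the lists, were named for a small p among genes with higher means, so their direction was set by that choice. Rad51ap1, a factor of homologous recombination, measured 0.421, 0.225, 0.316 and 0.408 FPKM in control and 0.647, 0.673, 0.85 and 0.718 FPKM in WTCPM mice, without overlap (difference 0.91, SE 0.25, adjusted p = 0.324). Dscc1, which helps load the replication clamp in sister chromatid cohesion, measured 0.0969, 0.19, 0.101 and 0.0567 FPKM and 0.21, 0.357, 0.361 and 0.165 FPKM, with overlap (difference 0.82, SE 0.27, adjusted p = 0.614). Each of these 2 genes overlaps a predicted gene on the opposite strand, and the sources used here do not state whether counting used the strand. Troap, Dio2, Trdv2-2, Col6a6 and Prox1 also overlap a gene on the opposite strand. Polq, the DNA polymerase of end joining, measured 0.224, 0.187, 0.225 and 0.543 FPKM and 0.43, 0.421, 0.334 and 0.736 FPKM (adjusted p = 0.894). It was 1 of 3 tested genes of the DNA repair and p53 list, all with higher means, a median of 0.22 and none at an unadjusted p under 0.05.

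Promoters of cell cycle genes are known for CCAAT boxes and for the cell cycle homology region (CHR), searched here as CCAAT and TTTGAA on both strands. The RefSeq table held 8 of the 9 genes. A CCAAT box lay in the 250 bases before the RefSeq start of 7 of them, against 33.8% of all promoters, and a CHR in 3, against 16% of all. Kif14 is among both the 7 and the 3. Its window (chr1:136467598-136467847) lies inside the GENCODE gene, which begins at chr1:136466343, so these matches may not be in its promoter. The windows of Troap and Cenpm, both among the 7, also lie inside their GENCODE genes. Depdc1a (chr3:159495183-159495432, plus strand), Cenpw (chr10:30200541-30200790, minus strand) and Prr11 (chr11:87108715-87108964, minus strand) are shown, the first pair because they hold both motifs close to the start and the last because it had the smallest p, with matches in capitals.
Depdc1a: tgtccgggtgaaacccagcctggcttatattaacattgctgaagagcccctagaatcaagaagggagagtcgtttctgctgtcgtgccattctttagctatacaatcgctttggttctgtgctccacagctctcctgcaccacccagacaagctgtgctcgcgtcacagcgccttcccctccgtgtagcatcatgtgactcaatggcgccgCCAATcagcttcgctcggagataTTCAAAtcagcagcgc
Cenpw: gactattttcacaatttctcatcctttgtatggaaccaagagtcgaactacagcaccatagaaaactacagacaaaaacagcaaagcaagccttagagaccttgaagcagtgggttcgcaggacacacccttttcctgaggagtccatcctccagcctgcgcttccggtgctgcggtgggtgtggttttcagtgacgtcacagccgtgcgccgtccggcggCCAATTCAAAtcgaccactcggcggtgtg
Prr11: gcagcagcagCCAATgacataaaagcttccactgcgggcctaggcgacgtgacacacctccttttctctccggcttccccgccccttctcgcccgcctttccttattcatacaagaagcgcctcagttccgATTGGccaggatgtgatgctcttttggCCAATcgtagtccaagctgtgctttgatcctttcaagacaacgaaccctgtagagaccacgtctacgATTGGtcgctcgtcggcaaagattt
In Depdc1a a CCAAT box begins 39 bases before the start and the CHR, on the minus strand, covers bases 16 to 11. In Cenpw the motifs share a base, with the box beginning 29 bases before the start and the CHR covering bases 25 to 20. Prr11 has 4 CCAAT boxes, 2 on each strand, and no CHR in this window.

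Adipocyte genes lay on the lower side. The 4 tested members all had lower means, 3 had an unadjusted p under 0.05 and the same 3 did not overlap between the groups, and none passed after adjustment. The median difference was -1.35, and -0.99 without control mouse 1. One of the 3, Tmem179, was placed in the list after earlier results of these data. Without it 3 members were tested, 2 had an unadjusted p under 0.05 and did not overlap, and the median was -1.29, and -0.93 without control mouse 1. Summed levels were 0.759 to 2.96 FPKM in control and 0.238 to 0.447 FPKM in WTCPM mice. Control mouse 1 gave the highest of these sums, 2.96 FPKM, and the other controls lay between 0.759 and 1.34 FPKM. The label names lung as the tissue, the markers Adipoq, Ucp1 and Cidea have no identifier of their own, and the amount of fat tissue in the samples was not tested.

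Lep, which encodes the adipocyte hormone leptin (chr6:29060220-29073877, plus strand), had the smallest p of all genes with lower means. It measured 0.978, 0.105, 0.289 and 0.381 FPKM in control and 0.0471, 0, 0 and 0 FPKM in WTCPM mice, with 3 WTCPM mice listed at 0 and control mouse 1 the highest by far. The difference was -2.03 (SE 0.42, adjusted p = 0.131) on about 18.9 read pairs per control mouse and 0.422 per WTCPM mouse, and -1.61 without control mouse 1. It passed in 3 of the 23 alternative analyses that kept it, over which its adjusted p ranged from 0.0285 to 0.587. In drug-treated dust mice Lep measured 0.311, 0.0636, 0.141 and 0.19 FPKM with rosoxacin and 0.196, 0.0658, 0.173 and 0.0639 FPKM with dexamethasone, and none of those 8 mice was at 0. Hcar1, the lactate receptor that restrains fat breakdown, measured 0.917, 0.261, 0.41 and 0.197 FPKM in control and 0.07, 0.137, 0.0953 and 0.0987 FPKM in WTCPM mice (difference -1.29, SE 0.35, adjusted p = 0.324, and -0.93 without control mouse 1). Tmem179, a membrane protein gene, measured 0.916, 0.154, 0.405 and 0.304 FPKM and 0.141, 0.0634, 0.0926 and 0.0391 FPKM (difference -1.41, SE 0.37, adjusted p = 0.324, and -1.05 without that mouse). Dio2, the enzyme that activates thyroid hormone in brown fat and other tissues, overlapped between groups, at 0.146, 0.238, 0.234 and 0.24 FPKM in control and 0.189, 0.151, 0.0506 and 0.187 FPKM in WTCPM mice (adjusted p = 0.903).

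**Figure D4:**
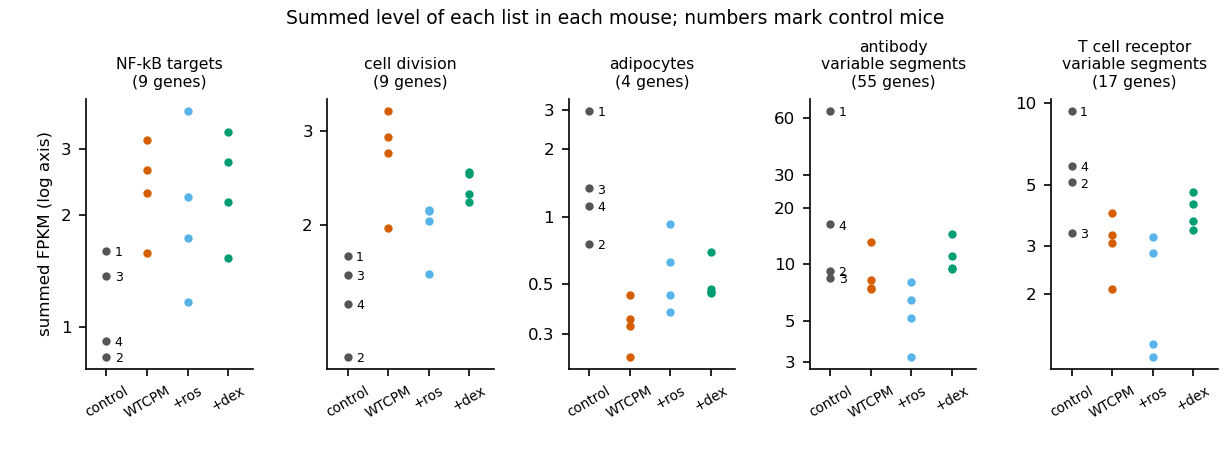
Each point is the summed FPKM (log axis) of the tested genes of a list in 1 mouse, by group (4 mice each), and numbers mark the control mice. Adipocyte and antibody sums are highest in control mouse 1 (2.96 and 65.3 FPKM), and the cell division sums of WTCPM mice all lie above those of control mice.

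Antibody variable segments, the joined V genes of B and plasma cells, were the list with the most tested members after the predicted models. Of 55 tested, 49 had lower and 6 higher means in WTCPM mice, with a median difference of -0.82, 5 at an unadjusted p under 0.05 and none passing. This rested on 1 control library. Summed levels were 65.3 FPKM in control mouse 1 and 9.24, 8.48 and 16.3 FPKM in control mice 2, 3 and 4, against 7.36 to 13.1 FPKM in WTCPM mice. Without control mouse 1 the median was -0.33, with 38 segments lower and 17 higher, 1 lower and 3 higher ones at an unadjusted p under 0.05. The same 55 segments were used there, chosen by a mean over all 16 mice that includes control mouse 1. Segments high mainly in that mouse could thus enter, which favours lower WTCPM means in these counts. Heavy chain segments (24 tested, median -0.84) and kappa segments (31 tested, median -0.75) lay on the same side.

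Ighv1-50, a heavy chain segment, had the smallest p of the list. It measured 1.42, 0.341, 0.492 and 0.457 FPKM in control and 0.15, 0, 0.105 and 0 FPKM in WTCPM mice, without overlap (difference -2.19, SE 0.46, adjusted p = 0.131), and the difference was -1.81 without control mouse 1. The kappa segment with the smallest p measured 1.79, 0.268, 0.0389 and 0.0678 FPKM in control and was listed at 0 in all 4 WTCPM mice (adjusted p = 0.672). Most of its control mean came from mouse 1, without which its adjusted p was 0.995 by limma. The control values carried this kappa segment past the filter of 0.1 FPKM, which favoured the lower side for it. V segments are short and alike, so their reads may be split among relatives.

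T cell receptor variable segments leaned the same way, with 13 of 17 lower in WTCPM mice, 3 at an unadjusted p under 0.05, all lower, and a median of -0.61. The median was -0.34 without control mouse 1, with 12 lower. Trdv2-2, of the delta chain of gamma-delta T cells, measured 0.375, 0.141, 0.361 and 0.533 FPKM in control and was listed at 0 in all 4 WTCPM mice (adjusted p = 0.131), on about 3.27 read pairs per control mouse. It was also at 0 in all 4 rosoxacin mice and measured 0, 0.336, 0.0674 and 0 FPKM with dexamethasone. Its control values carried it past the filter of 0.1 FPKM, which favoured the lower side for this segment. Trbv1, of the beta chain, measured 0.536, 0.694, 0.425 and 0.858 FPKM in control and 0, 0.236, 0.223 and 0.166 FPKM in WTCPM mice, without overlap (difference -1.61, SE 0.45, adjusted p = 0.324). Without control mouse 1 the difference of Trbv1 was -1.67.

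Of 16 matrix and mesenchyme genes, 9 had higher and 7 lower means, with a median of 0.01. P4ha3, a prolyl hydroxylase subunit needed for stable collagen, measured 0.095, 0.21, 0.128 and 0.103 FPKM in control and 0.701, 0.327, 0.333 and 0.179 FPKM in WTCPM mice, with WTCPM mouse 1 the highest and mouse 4 inside the control range (difference 0.97, SE 0.28, adjusted p = 0.356). Col6a6, a collagen VI chain, measured 0.411, 0.146, 0.167 and 0.165 FPKM and 0.126, 0.0805, 0.0827 and 0.0752 FPKM, a difference of -0.69 (adjusted p = 0.74) that was -0.45 without control mouse 1. Among 39 G protein coupled receptors the median was -0.05. Rxfp4, the receptor of insulin-like peptide 5, measured 0.301, 0.328, 0.288 and 0.124 FPKM in control and 0.657, 0.597, 0.85 and 0.411 FPKM in WTCPM mice, without overlap (difference 1.03, SE 0.26, adjusted p = 0.324). The rosoxacin mice measured 0.182, 0.176, 0.356 and 0.225 FPKM and the dexamethasone mice 0.574, 0.383, 0.544 and 0.34 FPKM of it.

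Of 32 ion channel genes, 22 had higher means, with a median of 0.16, and none passed after adjustment. Cacna1h, a T-type calcium channel that overlaps Tpsg1 on the opposite strand, had a difference of -0.62 (adjusted p = 0.894), and of -0.53 without control mouse 1. Spink2, a serine protease inhibitor, had a difference of 1.59 (adjusted p = 0.74) on about 1.74 read pairs per control mouse and 5.65 per WTCPM mouse. The lists of 24 solute carriers, 12 zinc finger genes, 17 homeobox and developmental factors, 4 ciliated cell genes and 6 airway secretory genes had no member at an unadjusted p under 0.05. Prox1, the defining gene of lymphatic endothelium, measured 0.137, 0.311, 0.424 and 0.537 FPKM in control and 0.6, 0.394, 0.577 and 0.458 FPKM in WTCPM mice (adjusted p = 0.894), with overlap.

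The other genes with the smallest p-values are given singly. On the higher side, G6pd2, a retrogene copy of glucose-6-phosphate dehydrogenase that can share reads with its parent, measured 0.241, 0.147, 0.11 and 0.21 FPKM in control and 0.342, 0.365, 0.298 and 0.405 FPKM in WTCPM mice, without overlap (difference 0.73, adjusted p = 0.356). Lmod3, a regulator of actin filaments in muscle, was listed at 0 in 3 control mice and measured 0.233 FPKM in control mouse 3, against 0.324, 0.313, 0.105 and 0.208 FPKM in WTCPM mice (adjusted p = 0.559). Fbxo48, an F-box protein gene, and Sebox, a homeobox gene, had differences of 0.66 and 0.92. Sebox stood on about 1.33 read pairs per control mouse and 4.56 per WTCPM mouse and changed sign in lane 2 alone.

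On the lower side, several genes were highest in control mouse 1. Nat8l, which makes N-acetylaspartate in neurons and fat, measured 0.887, 0.354, 0.317 and 0.236 FPKM in control and 0.148, 0.263, 0.182 and 0.167 FPKM in WTCPM mice, a difference of -0.80 (adjusted p = 0.711) that was -0.48 without that mouse. Marc1, a mitochondrial reductase, and Calhm6, a channel protein of activated immune cells, had differences of -1.29 and -1.16 that were -0.92 and -0.79 without it. Paqr9, a membrane receptor gene, had the most reads of the genes named on this side, at 0.462, 0.308, 0.433 and 0.38 FPKM in control and 0.236, 0.257, 0.233 and 0.212 FPKM in WTCPM mice, without overlap (difference -0.56, SE 0.20, adjusted p = 0.715), on about 80.7 read pairs per control mouse and 39 per WTCPM mouse. Cd164l2, Got1l1, Fam83a, Lrrn2, the pseudogene Rps7-ps1 and the imprinted noncoding RNA H19 had differences of -1.53, -1.51, -0.83, -0.60, -0.82 and -0.77, with adjusted p-values from 0.356 to 0.894. Of these, Cd164l2, Lrrn2 and H19 overlap other genes. The microRNA gene Mir679 was listed at 0 in 3 WTCPM mice and measured 0.388, 0.187, 0.29 and 0.565 FPKM in control (adjusted p = 0.394), but this 74-base gene rested on about 0.613 read pairs per control mouse. Mir679 and H19 belong to a list of noncoding RNA genes, of which 12 of 25 tested had higher and 13 lower means, with a median of -0.01. Gm42511, a processed pseudogene named here after its values were seen, had the smallest p of all 2749 genes (difference 1.97, adjusted p = 0.131). It rested on at most 2.78 read pairs in any mouse. Its WTCPM values carried it past the filter of 0.1 FPKM, which favoured the higher side for this pseudogene.

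Assembled loci were tested as a second table of 17355 features that averaged 1 FPKM or more. Of these, 7 passed (0.0403%), 1 higher and 6 lower in WTCPM mice, and 871 (5.02%) had an unadjusted p under 0.05. Fitted on the control and WTCPM mice alone, 2 passed, both higher. The one that rose, MSTRG.23017, measured 2.88, 0.444, 0.834 and 0.691 FPKM in the control mice and 50.2, 54.6, 24.2 and 61.7 FPKM in the WTCPM mice (difference 4.50 on the log2(FPKM + 1) scale, SE 0.46, adjusted p = 0.000455 by limma). Of those that fell, MSTRG.15472 had the smallest p. It measured 55.2, 27.5, 29.6 and 19.8 FPKM in control and 9.69, 5.31, 8.68 and 6.18 FPKM in WTCPM mice (difference -1.94, SE 0.23, adjusted p = 0.00153 by limma). With the 2 groups fitted alone its adjusted p was 0.218. Rosoxacin mice measured 8.49, 6.93, 6.60 and 8.40 FPKM of it and dexamethasone mice 15.2, 14.8, 14.7 and 13.9 FPKM, so that all 12 dust-exposed mice lay below all 4 controls.

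The drug-treated dust mice were set beside these lists without a test, since they also received a drug and would share the same control mice. Summed levels of the NF-kB targets ran from 1.17 to 3.78 FPKM with rosoxacin and 1.53 to 3.33 FPKM with dexamethasone. For cell division genes they were 1.62 to 2.13 FPKM and 2.21 to 2.51 FPKM, and for adipocyte genes 0.376 to 0.932 FPKM and 0.457 to 0.695 FPKM. Neutrophil genes summed to 1.34 to 2.05 FPKM with rosoxacin and 1.6 to 3.29 FPKM with dexamethasone, and all 8 of these mice lay above the control range of 0.814 to 1.27 FPKM. Asprv1 measured 0.735, 0.741, 0.637 and 0.462 FPKM in the dexamethasone mice.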

How the data were processed

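Whole lung RNA of 16 mice was sequenced in 2 lanes per mouse. The FPKM values were made by the authors per transcript, and per the submitters' processing notes StringTie 2.1.5 was used with HISAT2 2.2.1 on mm10. The sources used here do not state the strand settings or the annotation. The deposited FPKM were summed per gene identifier and averaged over the 2 lanes, which gave 26305 Ensembl genes and 28335 assembled loci.

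Named genes (mean of at least 0.1 FPKM over 16 mice) were fitted with limma 3.58.1 in R 4.3.3 on log2(FPKM + 0.1), all 4 groups in 1 fit, with trend and Benjamini-Hochberg adjustment at 0.05. Loci (mean of at least 1) were fitted on log2(FPKM + 1). The fit was tested on simulated data. Symbols and positions came from GENCODE M21, where 25510 identifiers matched. Of 2749 tested genes, 1786 are predicted models, which are counted and, with few exceptions, not named.

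The text names the 15 genes with higher and the 15 with lower means that had the smallest p, leaving out predicted models and antigen receptor segments, up to 4 members per list with the smallest p and the most abundant one. Ccl20, Cenps, Cenpw, Kif14, Troap, Ttk and Gm42511 were added after their values were seen. Some genes that this rule names are not reported here. There were 46 lists. The comparison, its members and the lists were chosen with earlier results of these data known. Alternatives covered pseudocounts, filters, scaling, lanes, the variance model, the library number, a replicate block and each mouse left out.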

Additional observations from a re-analysis of the deposited data

Results flagged for a closer look

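In groups of 4 mice, 1 mouse lay apart from the other 3 by Dixon's criterion on the gap over the range in 22 of the 156 sets of values checked. Chance gives about 1 in 20 for independent normal values. These FPKM have a floor at 0, and the sets share the same mice, so that rate is no measure of an excess here. Control mouse 1 was the mouse apart in 10 of the 22 sets. It was high for Cenpm (0.283 FPKM), Cxcl2 (0.340), Col6a6 (0.411), Ccl4 (0.290), Acod1 (0.0489), Ighv1-50 (1.42), the kappa segment with the smallest p (1.79), the locus MSTRG.23017 (2.88) and the summed antibody segments (65.3 FPKM), and low for Dio2 (0.146 FPKM). The same mouse had the highest total FPKM of the 8, and its part in these values was not tested.

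Among the other control mice, mouse 3 was high for Depdc1a (0.0898 FPKM) and Lmod3 (0.233), and mouse 4 for Polq (0.543) and Gm42511 (0.0566). Among WTCPM mice, mouse 1 was high for Lep (0.0471 FPKM), Got1l1 (0.113) and Col6a6 (0.126), mouse 2 was high for Klrc3 (0.228) and low for Cacna1h (0.0341), mouse 3 was high for Mir679 (0.0989) and low for Il5ra (0), and mouse 4 was high for the summed antibody segments (13.1 FPKM). Several of these values are 1 mouse with reads against 3 listed at 0.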

How the results depend on the processing

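About 5 read pairs per mouse stand behind a median tested gene, and control mouse 1 differs from the rest. With 1 mouse left out, the adipocyte, antibody and T cell receptor medians were smallest in size without control mouse 1. Those of NF-kB targets and cell division were smallest without WTCPM mouse 1. Against 0 named genes in the analysis as reported, 2 passed with a pseudocount of 0.01 (Saa1 and Lep) and 2 with no filter (Gm42511 and Mrgprb1). One gene passed with a pseudocount of 1, with a mean of at least 0.05 FPKM, with a mean of at least 0.1 over the 8 mice or without the trend (Gm42511 each time), and 1 with lane 1 alone (Trbv12-2). Leaving out 1 mouse gave 0 to 1 genes, namely Cenpm without control mouse 1, Lep without control mouse 2 and Gm15875 without WTCPM mouse 3. The count at an unadjusted p under 0.05 moved from 141 to 219 with a mean of at least 0.05 FPKM, 47 with 0.3 and 521 with no filter. As shares of the genes tested these 3 were 5.37%, 5.11% and 4.42%. With 1 mouse left out the count lay between 124 (4.51%, without WTCPM mouse 1) and 201 (7.31%, without control mouse 4). The cause of this spread was not tested.

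Among loci 7 became 2 with the compared groups alone, 4 with the library number as covariate and 4 to 12 with 1 mouse left out (12 without control mouse 1; 4 without control mouse 3, WTCPM mouse 2 or WTCPM mouse 4).

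List medians followed the pseudocount by construction. With 0.01 and with 1 they were 1.708 and 0.159 for NF-kB targets, 0.797 and 0.137 for cell division, -1.977 and -0.379 for adipocytes, and -1.185 and -0.128 for T cell receptor segments. The median was 0.319 for the 3 NF-kB targets with a mean of at least 0.3 FPKM, and 0.687 for cell division in lane 1 alone. With 1 mouse left out the medians ran from 0.667 to 1.002, 0.452 to 0.625, -1.573 to -0.991 and -0.828 to -0.336 in the same order, and from -0.988 to -0.333 for antibody segments, where the value nearest 0 came without control mouse 1. Without Tmem179, a choice made after seeing the data, the adipocyte median was -1.289. All 5 lists kept their side under each alternative in which their median was taken. For cell division and adipocytes none was taken at a mean of at least 0.3 FPKM.

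Mice of the 2 groups share numbers only. Deviations of equally numbered mice correlated between -0.156 and 0.0489, and mouse 1 of one group was closer to other numbers than to its own. With the replicate block 1 named gene passed (Lep), and 12 loci in place of 7.

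Single genes kept their sign in 1600 of 1611 alternatives. The cause of the 11 reversals was not tested. Lane 1 alone reversed Troap (-0.732) and Ttk (-0.333), and lane 2 alone Sebox (-0.362), Ccl20 (0.140) and Cxcr2 (-0.166). Cxcr2 also reversed with a pseudocount of 1 (-0.002), with median-of-ratios scaling (-0.013), without control mouse 2 (-0.074) or 3 (-0.182) and without WTCPM mouse 1 (-0.018) or 2 (-0.026), within a range of -0.182 to 0.252 over all mice left out.

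Total FPKM differed by -65865 between WTCPM and control mice (exact two-sided permutation p = 0.8), with differences of -109849 to 21791 when 1 mouse was left out, a choice made after seeing the data. The number of features above 0.1 FPKM differed by 203 (exact p = 0.943), and by -287 to 441 with 1 mouse left out. Both differences changed sign without control mouse 1.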

Other observations

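Provisional gene models and lincRNA genes leaned to the higher side in WTCPM mice when all 8 mice were used. Of 199 provisional models of GENCODE's TEC class, 145 had higher means, with a median difference of 0.19, and 11 had an unadjusted p under 0.05, all higher. Of 304 lincRNA genes, 205 had higher means (median 0.15), with 6 higher and 5 lower at an unadjusted p under 0.05. Protein-coding genes shared the lean to a smaller degree, with 493 of 870 higher and a median of 0.05. Processed pseudogenes did not share it, with 424 of 936 higher and a median of -0.05. Other noncoding classes lay on both sides, among them microRNA genes (26 of 60 higher), snRNA genes (25 of 64) and snoRNA genes (9 of 15). The TEC models summed to 33.2, 56.3, 61.4 and 73.6 FPKM in the 4 control mice and 70.2, 57.2, 66.4 and 59.8 FPKM in the 4 WTCPM mice, so that control mouse 1 was the one control below the WTCPM range by a wide margin. Without control mouse 1 the lean was gone. Then 92 of 199 TEC models were higher and 107 lower (median -0.02), and 136 of 304 lincRNA genes were higher and 168 lower (median -0.04). Of 870 protein-coding genes, 430 were then higher and 440 lower.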
